A study of Mus musculus with 6 samples.

Results

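The 43 genes described here are interferon-stimulated genes, given as a list of names and not chosen by a threshold on their values. Probes were assigned to them by matching the accession in the scanner files to RefSeq symbols. Of the 43 genes, 41 had a named probe, and all 41 passed the filter on dim probes and were tested. They stood among 23462 named genes on the array, of which 18222 were tested. Mx1 and Mx2, GTPases that block viral replication, were not matched by accession and are not analysed here. The 41 genes fell into 7 groups by role, and 40 of them were well above background on every array with a usable spot. The exception was Gbp5, whose spot on mPGC-1α array 1 was not.

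Microglia, the resident macrophages of the brain, were isolated by magnetic selection for the surface receptor P2RY12 from mice with acute ischemic stroke (AIS) and measured on 1-colour expression arrays, with 3 arrays per genotype. The control mice were PGC-1α f/f mice, which carry a PGC-1α allele with loxP sites and eGFP, and are littermates without the Cre. The mPGC-1α mice carried the same allele and a tamoxifen-inducible Cre driven from the Cx3cr1 locus. That locus is active in microglia and also in other Cx3cr1-expressing myeloid cells. By the study, this cross overexpresses PGC-1α in microglia and does not delete it. The study left an interval after tamoxifen so that macrophages would not carry the overexpression, and reported staining and mRNA checks of its specificity. By the study's methods the mice had a C57BL/6 background, both genotypes received tamoxifen, and stroke was induced by transient occlusion of the middle cerebral artery. The labels give an age of 10 weeks and male sex for all 6 samples. The time after stroke for these arrays is not given in the sources used here. The sources also do not say whether a sample was 1 mouse or a pool, so the p-values below measure only the spread between these samples.

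Interferons are secreted proteins that cells release after their sensors detect foreign or misplaced nucleic acid. Type I interferons bind the receptor of IFNAR1 and IFNAR2, and the receptor's kinases JAK1 and TYK2 then activate STAT proteins, among them STAT2, which with IRF9 bind a DNA element called the interferon-stimulated response element (ISRE). Interferon gamma acts through its own receptor and the gamma-activated site (GAS) in DNA, and induces guanylate-binding proteins and immunity-related GTPases most of all. Microglia respond to both kinds, and a microglial interferon response is known from ischemic and ageing brain.

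The response elements can be seen in the sequence in front of these genes. RefSeq promoters (assembly GRCm38.p6) were available for 33 of the 43 genes. In the 250 bases before the start site, the ISRE core (GAAA, any 2 bases, then GAAA), searched on both strands, was present in 15 of 33 genes (45.45%), against 936 of 27025 genes in the whole table (3.463%). The GAS pattern TTCNNNGAA was present in 10 of 33 (30.3%), against 2197 of 27025 (8.13%). A match describes letters only. The stretches below were picked among the windows with a match and show what the core looks like in front of genes described further on: a transcription factor, IFIT genes, other effectors and guanylate-binding proteins. Of the 5 genes with an unadjusted p below 0.05, only Stat2 is among them. Irf7 and Lgals3bp held 0 ISRE cores, and Rtp4 and Ifi27l2a were not among the 33 genes. Of the other genes given by array, Herc6, Oasl1 and Samhd1 held 0. The stretches read 5′ to 3′ along the gene's strand, with ISRE matches in capitals, where TTTC, 2 bases and TTTC is the core on the opposite strand.
Stat2 (chr10:128270256-128270305, + strand): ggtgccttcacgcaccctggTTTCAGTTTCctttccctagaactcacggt
Ifit1 (chr19:34640765-34640833, + strand): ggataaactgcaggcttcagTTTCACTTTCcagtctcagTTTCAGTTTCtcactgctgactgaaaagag
Ifit3 (chr19:34583353-34583436, + strand): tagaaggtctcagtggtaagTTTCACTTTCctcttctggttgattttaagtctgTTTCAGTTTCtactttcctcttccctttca
Rsad2 (chr12:26456543-26456592, - strand): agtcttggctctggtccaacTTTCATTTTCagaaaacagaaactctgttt
Bst2 (chr8:71537567-71537622, - strand): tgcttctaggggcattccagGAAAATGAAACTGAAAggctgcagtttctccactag
Gbp2 (chr3:142620584-142620633, + strand): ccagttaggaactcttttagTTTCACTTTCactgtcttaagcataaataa
Gbp5 (chr3:142496749-142496798, + strand): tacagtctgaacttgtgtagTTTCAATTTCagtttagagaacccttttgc
Ifit1 and Ifit3 each held 2 separate ISRE cores. Bst2 held 2 overlapping ones. Stat2, Rsad2, Gbp2 and Gbp5 held 1 each.

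Levels are log2 processed signals from which the array's own 75th percentile was taken off, so that 0 is the brightness of a spot at that percentile. A difference is the mPGC-1α mean minus the control mean on this scale, and levels of different genes are not compared because they come from different probes. Spots that the scanner software marked as outliers were left out, which left 35 of the 41 genes with all 6 values and 6 genes with 4 or 5. Arrays 1 and 2 of each group lay on slide 1 and array 3 on slide 2, so that a difference can also be read within each slide. Between 71.0% and 86.5% of the spots on an array were well above background. Control array 2 stood apart from the other 5. The X-inactivation transcript Xist was at -5.21 there and between -0.97 and -0.51 on the others, and the Y-linked Ddx3y was well above background only on control array 2. On these markers the other 5 arrays went against the male label. Ppargc1a, which encodes PGC-1α, was at -1.10 ± 0.29 (SD, n = 3) in control and -1.43 ± 0.14 (SD, n = 3) in mPGC-1α microglia, a difference of -0.33 ± 0.24 (SE) with a limma adjusted p of 0.817, so the arrays did not show it higher in mPGC-1α microglia. What part of the transcript its probes cover was not examined. Leaving out control array 2 moved the difference by more than 1.5 times or turned its sign in 27 of the 40 interferon-stimulated genes then tested, against 16 to 21 of 35 to 41 for each of the other arrays. This was not counted over all named genes, and differences near 0, such as those of Cmpk2 and Ifitm3, move easily by this rule. The counts are therefore not read as particular to these genes. The values without control array 2 are given below for the genes described by array whose difference moved in this way.

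The microglial markers P2ry12, Tmem119 and C1qa were well above background on all 6 arrays, though marked spots kept them out of the test. Of the 9 tested microglial markers 3 had a higher mean in mPGC-1α microglia, and the summed level of the 5 with 6 values, with the 75th percentile set to 1, was 64.0 to 81.4 on control and 62.5 to 65.9 on mPGC-1α arrays. Cx3cr1, the locus that carries the Cre, is among these 5 and was lower on all mPGC-1α than on all control arrays. It was at 3.81, 3.28 and 3.71 on the control arrays and at 2.38, 1.95 and 2.72 on the mPGC-1α arrays. Its difference of -1.25 had a limma adjusted p of 0.669. The summed level therefore includes the Cre locus, and the sum without it was not computed. Among other brain cells, 11 of 12 neuronal, 12 of 12 oligodendrocyte and 8 of 9 astrocyte markers had a higher mean in mPGC-1α microglia (median differences 0.87, 0.72 and 0.65). The summed level of the oligodendrocyte markers was 4.07 to 10.9 on control and 12 to 20.1 on mPGC-1α arrays. That of the neuronal markers was 33.7 to 53.9 and 51.8 to 60.9, and that of the astrocyte markers 7.26 to 10.3 and 8.91 to 28.6. The summed marker levels of blood-derived cells overlapped between the genotypes. They were 31.7 to 43.2 on control and 22.1 to 48.6 on mPGC-1α arrays for monocytes and macrophages. For neutrophils they were 20.6 to 34.6 and 9.77 to 37.7. For lymphocytes they were 4.86 to 10.9 and 5.06 to 8.77, and for plasmacytoid dendritic cells 15.4 to 22.1 and 18.2 to 22.2. Gene by gene, 2 of 12 monocyte and macrophage markers and 8 of 8 plasmacytoid dendritic cell markers had a higher mean in mPGC-1α microglia. The median differences were -0.19 and 0.26, beside 61.7% higher and a median of 0.09 among all named genes. For neutrophils 4 of 7 and for lymphocytes 7 of 12 were higher. Endothelial and mural markers summed to 3.41 to 4.57 and 2.91 to 3.77, and 2 defining ones, Tek and Rgs5, were not well above background on any array. mPGC-1α array 1 was the lowest of the 6 for monocytes and macrophages (22.1, against 31.7 to 48.6 on the others) and for neutrophils (9.77, against 20.6 to 37.7), and the highest for oligodendrocytes (20.1, against 4.07 to 12.6). None of these markers passed the adjusted test. Their part in the results below was not tested, and in such bulk samples fewer cells of a type and less RNA per cell cannot be told apart.

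Over all 41 interferon-stimulated genes, 26 were higher (63.4%) and 15 lower in mPGC-1α than in control microglia, beside 61.7% higher among 18222 named genes, which is also the share to read the counts by role and pathway against. The median difference was 0.11 on the log2 scale, with quartiles of -0.15 and 0.37, beside 0.06 for all 40745 tested probes and 0.09 for 1 probe per named gene. None passed an adjusted p of 0.05 in limma, and their smallest adjusted p was 0.669. None of the 40745 tested probes passed either (0%). At an unadjusted p below 0.05 there were 5 of 41 genes, all higher: Rtp4, Ifi27l2a, Stat2, Irf7 and Lgals3bp. The background for that count was 7.15% of all tested probes in either direction (2.3% higher and 4.85% lower), or 5.94% of 1 probe per named gene (2.97% higher). In 4 of the 35 genes with 6 values every mPGC-1α array lay above every control array, and in 0 genes below. Among all tested probes with 6 values 5.87% were separated in the higher direction, 5.15% in the lower and 11% in either, and with 1 probe per named gene 7.34% in the higher direction and 11.2% in either. With the replicate number as a block 0 of 41 genes passed the adjusted test, beside 1 of 40745 probes (0.00245%). At an unadjusted p below 0.05 the block gave 7 of 41 genes, against 11.7% of all tested probes: the same 5 and, on the lower side, Bst2 and Gbp5. Their unadjusted p values from limma with the block were 0.0443 and 0.0486. Gbp5 passed the filter on dim probes only through the control group, in which it was higher. No single gene could reach 0.05 in an exact two-sided permutation test of 3 against 3 arrays, whose smallest p is 0.1. The plot of differences by role uses the brightest probe of each gene. It shows the transcription factors and sensors on the higher side and the GTPases mostly on the lower side.

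**Figure D1:**
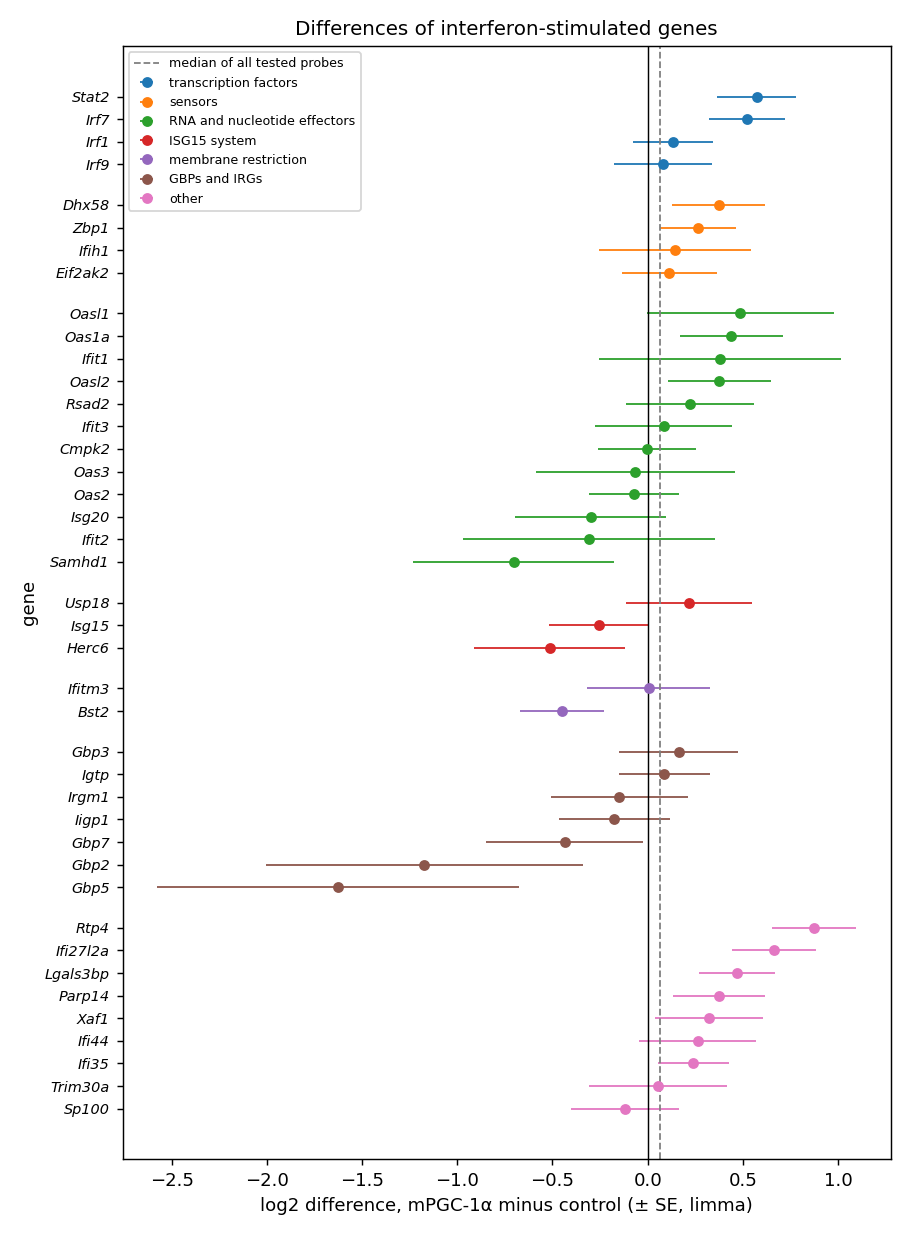
Difference between mPGC-1α and control microglia for each of the 41 tested interferon-stimulated genes (x axis, log2 scale, with the SE from limma), 1 row per gene, grouped and coloured by role. The solid line is 0 and the dashed line the median of all tested probes (0.06). Rtp4 lies farthest right at 0.87 and Gbp5 farthest left at -1.62 with the widest bar.

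On the brightest probe of each gene, all 4 transcription factors of the response had a higher mean in mPGC-1α microglia. Their median difference was 0.33, and 2 of them had an unadjusted p below 0.05. Stat2, the STAT that is specific to type I and type III interferon signalling, was at 0.74, 0.38 and 0.62 in control microglia (arrays 1 to 3) and at 1.31, 0.91 and 1.23 in mPGC-1α microglia (arrays 1 to 3). All mPGC-1α values lay above all control values, and array 2 was the lowest of its group in both. The means were 0.58 ± 0.19 (SD, n = 3) in control and 1.15 ± 0.21 (SD, n = 3) in mPGC-1α microglia, a difference of 0.57 ± 0.21 (SE) or 1.49-fold, with a limma unadjusted p of 0.0224 and an adjusted p of 0.673. Irf7, which drives the production of type I interferons once it is itself induced, was at 0.96, 0.67 and 0.92 in control microglia (arrays 1 to 3) and at 1.31, 1.23 and 1.57 in mPGC-1α microglia (arrays 1 to 3). Here too the groups were separate, with mPGC-1α array 3 highest. The difference was 0.52 ± 0.20 (SE), 1.43-fold, with a limma unadjusted p of 0.0273 and an adjusted p of 0.673. Both differences appeared within each slide, for Stat2 0.55 between the arrays of slide 1 and 0.61 between those of slide 2, and for Irf7 0.46 between the arrays of slide 1 and 0.65 between those of slide 2. The remaining factors were close to 0 on their brightest probes. Irf1, a factor induced strongly by interferon gamma, differed by 0.13 ± 0.21 (SE), and Irf9, the DNA-binding partner of STAT2, by 0.081 ± 0.26 (SE) with its spot on mPGC-1α array 3 left out. Other probes went the opposite way, with the second probe of Irf1 at -1.99 and that of Irf7 at -0.77. With the mean over a gene's probes Irf1 was at -0.93 and Irf7 at -0.12.

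Each of the 4 sensors of foreign nucleic acid was also higher on average on its brightest probe. Their median difference was 0.20, and 0 of them had an unadjusted p below 0.05. Dhx58, which encodes the RNA helicase LGP2, had the smallest p of the group and was at 0.93, 0.29 and 1.09 in control microglia (arrays 1 to 3) and at 1.29, 1.04 and 1.11 in mPGC-1α microglia (arrays 1 to 3). Control array 2 was far below the other control arrays, and the remaining values overlapped. The difference was 0.37 ± 0.25 (SE), with a limma unadjusted p of 0.162 and an adjusted p of 0.798, and it was 0.55 between the arrays of slide 1 and 0.016 between those of slide 2. Without control array 2 it was 0.13. Zbp1, a sensor of Z-form nucleic acid that can start necroptosis, differed by 0.26 ± 0.20 (SE). Ifih1, the double-stranded RNA sensor MDA5, differed by 0.14 ± 0.40 (SE) over 5 arrays, and Eif2ak2, the kinase PKR, by 0.11 ± 0.25 (SE).

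The 12 effectors that bind, cut or edit RNA and nucleotides were split, 6 higher and 6 lower, and their median difference was 0.04. None had an unadjusted p below 0.05. Ifit3, Cmpk2, Oas2 and Oas3, all near 0, changed sign under at least 1 other scaling of the arrays. Ifit1, which binds foreign RNA by its cap, was at 1.23, -0.39 and 0.20 in control microglia (arrays 1 to 3) and at 2.33, -0.089 and -0.054 in mPGC-1α microglia (arrays 1 to 3). Array 1 was the highest of its group in both genotypes, and mPGC-1α array 1 stood more than 1 log2 unit above every other array. The difference of 0.38 ± 0.64 (SE) was smaller than its error, and it was -0.42 when mPGC-1α array 1 was left out and 0.013 when control array 2 was. Oasl1, a relative of the oligoadenylate synthetases, followed the same order at the top, at 0.093, -0.92 and -0.42 in control microglia (arrays 1 to 3) and at 1.33, -0.46 and -0.64 in mPGC-1α microglia (arrays 1 to 3). Its difference of 0.49 ± 0.49 (SE) was the fifth largest positive one of the 41 genes, yet without mPGC-1α array 1 it was -0.14 and without control array 2 0.24. Within slides the difference of Ifit1 was 0.70 between the arrays of slide 1 and -0.25 between those of slide 2, and that of Oasl1 0.84 between the arrays of slide 1 and -0.22 between those of slide 2. Samhd1, which breaks down deoxynucleotides and so limits reverse transcription, was at 2.29, 0.49 and 3.01 in control microglia (arrays 1 to 3) and at 0.94, 1.32 and 1.42 in mPGC-1α microglia (arrays 1 to 3). Control arrays 1 and 3 were high and control array 2 was below all the others. The means were 1.93 ± 1.30 (SD, n = 3) in control and 1.23 ± 0.25 (SD, n = 3) in mPGC-1α microglia, a difference of -0.70 ± 0.53 (SE) with a limma adjusted p of 0.819. It was -0.26 between the arrays of slide 1 and -1.60 between those of slide 2. Of the remaining effectors, the oligoadenylate synthetases Oas1a, Oasl2, Oas2 and Oas3 differed by 0.44, 0.38, -0.071 and -0.065, and Oas1a by 0.18 without control array 2. Ifit2 and Ifit3, partners of Ifit1, differed by -0.31 and 0.083. Rsad2, the antiviral enzyme viperin, differed by 0.22 and its genomic neighbour Cmpk2, a mitochondrial nucleotide kinase, by -0.003. Isg20, an RNA exonuclease, differed by -0.30.

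In the ISG15 system, which attaches the ubiquitin-like protein ISG15 to other proteins, 1 of 3 genes was higher and 2 were lower. Herc6, the main ISG15 ligase of the mouse, was at -1.10, -2.48 and -1.26 in control microglia (arrays 1 to 3) and at -1.91, -2.62 and -1.86 in mPGC-1α microglia (arrays 1 to 3). Array 2 was the lowest of its group in both genotypes, and the groups overlapped. The difference was -0.52 ± 0.40 (SE), with a limma adjusted p of 0.824, and it was -0.48 between the arrays of slide 1 and -0.59 between those of slide 2. Without control array 2 it was -0.95, with a limma adjusted p of 0.111. Isg15 itself differed by -0.26 ± 0.26 (SE), and Usp18, which removes ISG15 and restrains the type I receptor, by 0.22 ± 0.33 (SE).

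Of the membrane restriction proteins, Bst2 and Ifitm3 were measured. Bst2, tetherin, which holds budding virus at the cell surface, was at 2.87, 3.22 and 3.42 in control microglia (arrays 1 to 3) and at 2.86, 2.40 and 2.91 in mPGC-1α microglia (arrays 1 to 3). The groups overlapped by little, with only control array 1 inside the mPGC-1α range. The means were 3.17 ± 0.28 (SD, n = 3) in control and 2.72 ± 0.28 (SD, n = 3) in mPGC-1α microglia, a difference of -0.45 ± 0.22 (SE), with a limma unadjusted p of 0.0691 and an adjusted p of 0.73. Within slides it was -0.42 between the arrays of slide 1 and -0.52 between those of slide 2. Ifitm3, which blocks virus entry from endosomes, differed by 0.0059, far less than its SE of 0.32, and changed sign under quantile normalization.

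Guanylate-binding proteins and immunity-related GTPases, the gene group most tied to interferon gamma, were lower in 5 of 7 cases with a median difference of -0.18, and none had an unadjusted p below 0.05. Gbp2, which coats vacuoles that hold pathogens, was at 0.92, -2.47 and 1.48 in control microglia (arrays 1 to 3) and at -1.44, -1.11 and -1.03 in mPGC-1α microglia (arrays 1 to 3). Control arrays 1 and 3 lay above all mPGC-1α arrays and control array 2 lay below them. The means were -0.022 ± 2.14 (SD, n = 3) in control and -1.19 ± 0.22 (SD, n = 3) in mPGC-1α microglia, a difference of -1.17 ± 0.83 (SE) or 2.25-fold lower, with a limma adjusted p of 0.811. Within slides it was -0.50 between the arrays of slide 1 and -2.51 between those of slide 2. Gbp5, which promotes inflammasome assembly, was at -3.0, -4.00 and -3.26 in control microglia (arrays 1 to 3) and at -7.76, -3.72 and -3.66 in mPGC-1α microglia (arrays 1 to 3). The mPGC-1α mean was set by array 1, where the spot was not well above background, and the other mPGC-1α arrays lay within the control range. Because of that value, which is only a bound, Gbp5 passed the filter on dim probes only through the control group, in which it was higher. Its difference was -1.62 ± 0.95 (SE), the most negative of the 41 genes, and without mPGC-1α array 1 it was -0.27. Within slides it was -2.24 between the arrays of slide 1 and -0.39 between those of slide 2. Gbp7 was lower by 0.44 over 5 arrays. Gbp3 differed by 0.16. The GTPases Irgm1, Iigp1 and Igtp, which act together on membranes, differed by -0.15, -0.18 and 0.088.

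The calls for Gbp2 and Samhd1 turned on control array 2. Without it, Gbp2 differed by -2.39 with a limma adjusted p of 0.00141 and Samhd1 by -1.43 with an adjusted p of 0.0183, and these were the only 2 of 40 genes that passed. In the same fit 2130 of 39288 tested probes passed (5.42%), so 2 of 40 was close to that background. The median difference over the genes was -0.01 with 19 of 40 higher, beside a median of 0.17 over all tested probes. In the fit with no array left out, 1 of the other probes of Samhd1 differed by 0.16 and 1 by 0.05 over the 4 arrays with a usable spot.

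Of the 9 remaining genes 8 were higher, with a median difference of 0.32 and 3 of 9 with an unadjusted p below 0.05. Rtp4, a chaperone of cell surface receptors that is also antiviral, was at 1.77, 1.38 and 1.72 in control microglia (arrays 1 to 3) and at 2.75, 2.16 and 2.58 in mPGC-1α microglia (arrays 1 to 3). The groups were separate, and the order of arrays 1, 3 and 2 was the same in both genotypes. The means were 1.62 ± 0.21 (SD, n = 3) in control and 2.50 ± 0.30 (SD, n = 3) in mPGC-1α microglia, a difference of 0.87 ± 0.22 (SE) or 1.83-fold, with a limma unadjusted p of 0.00294 and an adjusted p of 0.669. The difference was 0.88 between the arrays of slide 1 and 0.86 between those of slide 2, and it stayed between 0.75 and 1.04 when any 1 array was left out. Ifi27l2a, a small interferon-induced membrane protein and a known mark of interferon-responsive microglia, was at 1.84, 1.64 and 2.16 in control microglia (arrays 1 to 3) and at 2.23, 2.74 and 2.65 in mPGC-1α microglia (arrays 1 to 3). The groups were separate, with the lowest mPGC-1α array just above the highest control array. The difference was 0.66 ± 0.22 (SE), 1.58-fold, with a limma unadjusted p of 0.0143 and an adjusted p of 0.669. Lgals3bp, a secreted glycoprotein that binds galectins, was at 3.13, 2.96 and 3.46 in control microglia (arrays 1 to 3) and at 3.70, 3.42 and 3.84 in mPGC-1α microglia (arrays 1 to 3). Control array 3 lay just above mPGC-1α array 2, so the groups overlapped by that pair of arrays. The difference was 0.47 ± 0.20 (SE), with a limma unadjusted p of 0.0437 and an adjusted p of 0.688. Within slides Ifi27l2a differed by 0.75 between the arrays of slide 1 and 0.49 between those of slide 2, and Lgals3bp by 0.51 between the arrays of slide 1 and 0.38 between those of slide 2. The other genes of the group were Parp14 at 0.38, Xaf1 at 0.32, Ifi44 at 0.26, Ifi35 at 0.24, Trim30a at 0.055 over 4 arrays and Sp100 at -0.12, all as differences. Trim30a changed sign under quantile normalization.

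Many of these genes differed between arrays of the same genotype, and the map of deviations by array shows where.

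**Figure D2:**
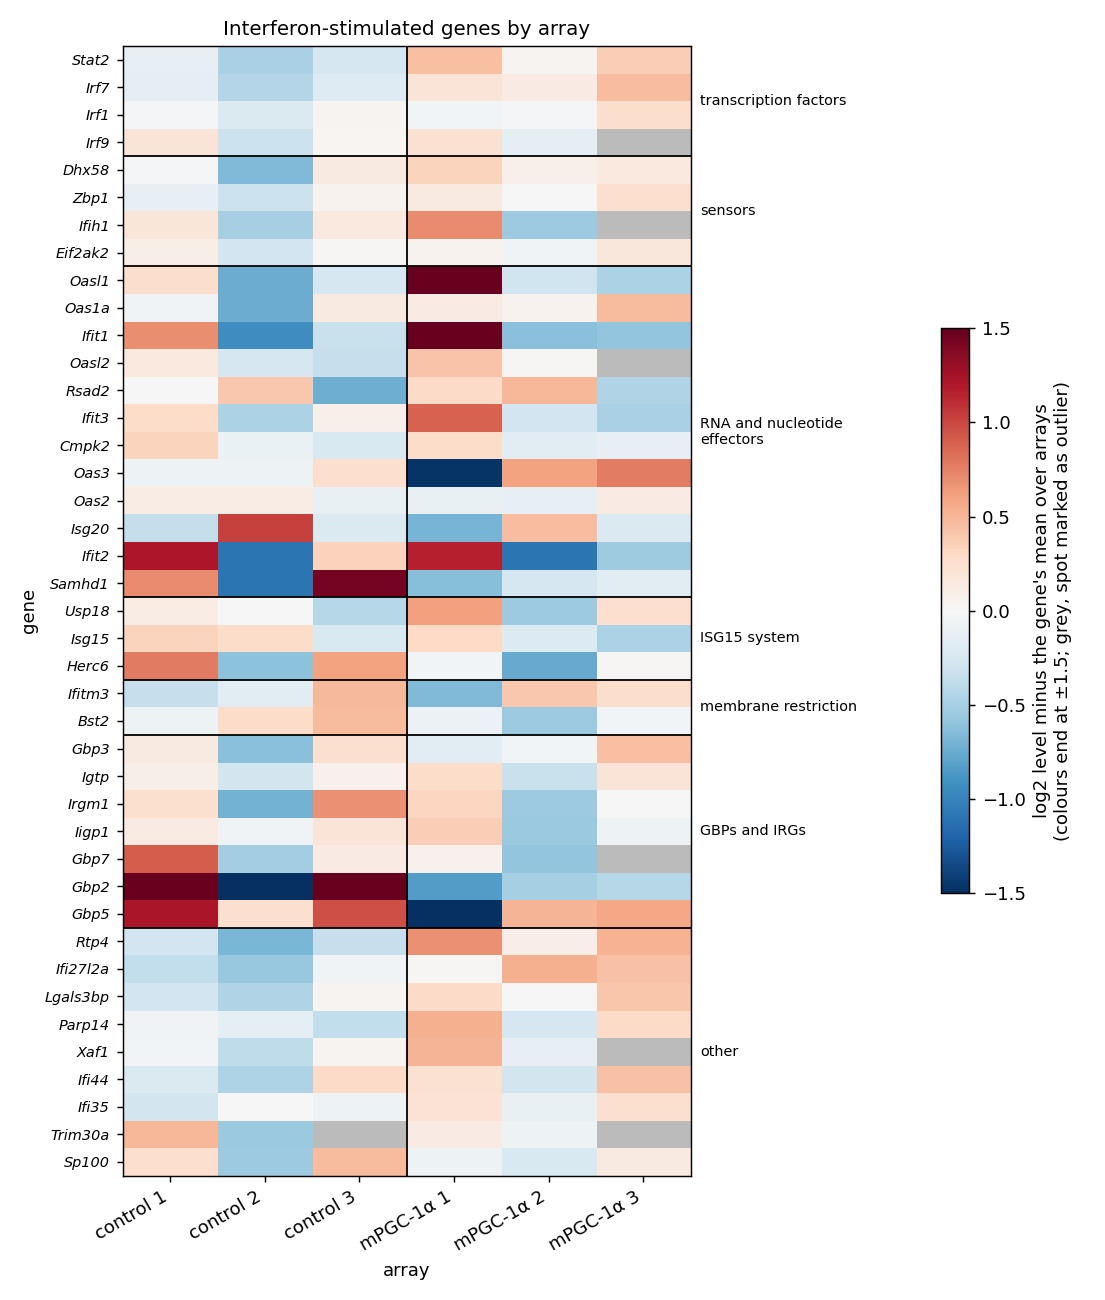
Deviation of each interferon-stimulated gene (rows, grouped by role) from its own mean over the arrays (columns), on the log2 scale, with colours ending at ±1.5 and grey for spots marked as outliers. Control array 2 is mostly blue, mPGC-1α array 1 holds the deepest reds among the effectors, and Gbp2 and Samhd1 are red on control arrays 1 and 3.

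To describe this common movement, each gene's mean over the 6 arrays was subtracted and the median was taken over the 35 genes with 6 values. It was 0.09, -0.44 and 0.05 in control microglia (arrays 1 to 3) and 0.22, -0.12 and 0.17 in mPGC-1α microglia. The same median over 16189 named genes was -0.19, 0.17 and -0.11, and then 0.05, 0.08 and -0.02. Control array 2 was thus the lowest for the interferon-stimulated genes and the highest for the named genes as a whole, and array 2 was below the other 2 arrays of its group for the interferon-stimulated genes in both genotypes. Control array 2 was the lowest of all 6 arrays in 18 of 35 genes (51.4%), against 10.4% of named genes. Array 2 was the lowest of its group in both genotypes in 16 of 35 (45.7%), against 8.66%. Array 1 was the highest in both in 11 of 35 (31.4%), against 8.07%, and array 3 in 11 of 35, against 8.14%. Gene by gene, mPGC-1α arrays 3 and 1 were the highest of all 6 in 11 and 10 of the 35 genes, against 12.5% and 16.4% of named genes, and control array 2 in 1 of 35, against 33.8%. These shares are descriptions, since genes on 1 array share its RNA and scaling.

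**Figure D3:**
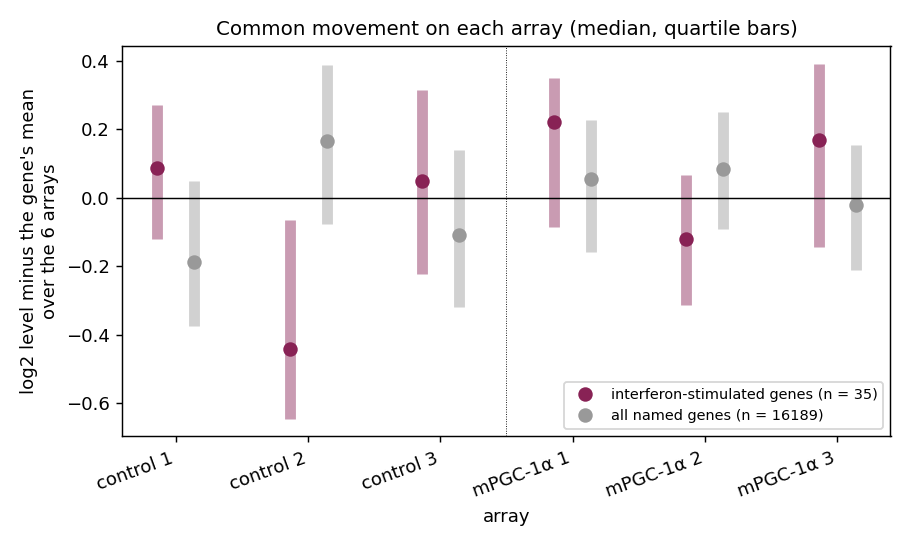
Common movement on each of the 6 arrays (x axis), as the median deviation from a gene's mean over the arrays (y axis, log2 scale), with bars from the lower to the upper quartile. Control array 2 is at -0.44 for the 35 interferon-stimulated genes and at 0.17 for all 16189 named genes, and mPGC-1α array 1 is at 0.22.

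The genes went together only in part. The median Pearson r between pairs of the 35 genes over the 6 arrays was 0.22, and between them and other named genes -0.11. With the group means taken out, these medians were 0.29 and -0.20. Around Ifit3, the within-group deviations over the 6 arrays correlated at 0.99 with Oasl1, 0.97 with Ifit1 and 0.91 with Ifit2. They ran the opposite way in Oas3 at -0.85, Gbp5 and Isg20 at -0.76 each, and Ifitm3 at -0.67. The value for Gbp5 includes its spot on mPGC-1α array 1, which was not well above background and is only a bound. All these values rest on 6 arrays that share library and scaling, and mPGC-1α array 1 lies at an end of many of them.

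Of the interferon genes themselves, 18 ligands were listed and 12 could be tested, 4 higher and 8 lower, and 0 had an unadjusted p below 0.05, or 1 with the replicate block. Ifnb1, interferon beta, was at -3.95, -3.07 and -3.87 in control microglia (arrays 1 to 3) and at 0.23, -2.70 and -3.31 in mPGC-1α microglia (arrays 1 to 3). It stood far above the other arrays on mPGC-1α array 1, on which Ifit1, Ifit3 and Oasl1 were also at their highest. In all, 10 of the 35 genes with 6 values were highest on that array, against 16.4% of named genes. Isg15 and Ifit2 were highest on control array 1 and Rsad2 on mPGC-1α array 2, and Oas3 was lowest on mPGC-1α array 1. The same array had the lowest neutrophil and monocyte and the highest oligodendrocyte marker levels, whose part was not tested. The means of Ifnb1 were -3.63 ± 0.48 (SD, n = 3) in control and -1.93 ± 1.89 (SD, n = 3) in mPGC-1α microglia. Its difference was 1.70 ± 0.78 (SE), with a limma unadjusted p of 0.0545 and an adjusted p of 0.707. With the replicate block its limma unadjusted p was 0.0139 and its adjusted p 0.241, and without mPGC-1α array 1 the difference was 0.63. Ifng, interferon gamma, differed by -0.13. The plot of Ifnb1 beside Ifit1, Ifit2, Ifit3, Oasl1 and Rtp4 sets the levels on each array side by side.

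**Figure D4:**
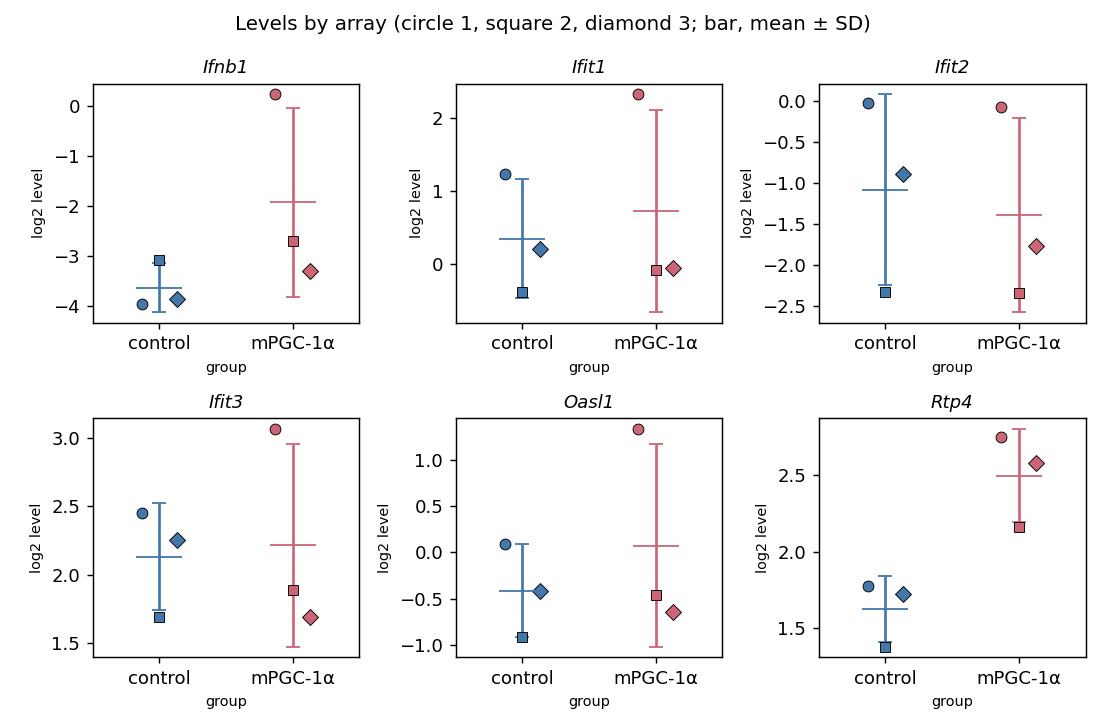
Log2 level on each array of Ifnb1 and of 5 interferon-stimulated genes, with control arrays in blue and mPGC-1α arrays in red (circle, square and diamond for arrays 1, 2 and 3, and mean ± SD). In Ifnb1, Ifit1, Ifit3 and Oasl1 the mPGC-1α circle lies above all other points, and in Rtp4 all mPGC-1α points lie above all control points.

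All 6 listed receptor genes were tested, 3 higher and 3 lower, and the median difference was 0.01. Ifnar1 and Ifnar2, the type I receptor, differed by -0.023 and 0.044, and Ifngr1 and Ifngr2, the interferon gamma receptor, by 0.15 and 0.085. These are the brightest probes, and only 2 of the 6 genes had all 6 values. Other tested probes of Ifnar1 differed by -0.28 and -1.78, and another of Ifnar2 by 0.34. Without control array 2, where 5.42% of tested probes passed, the Ifnar1 probe at -1.78 differed by -2.66 (limma adjusted p 0.00873). Of 7 tested kinases, STATs and negative regulators, 3 were higher and 4 lower. Stat3, which serves interleukin-6 family cytokines and limits interferon responses, was the only one of the 7 with an unadjusted p below 0.05. It was at 3.14, 3.19 and 3.14 in control microglia (arrays 1 to 3) and at 3.64, 3.67 and 3.85 in mPGC-1α microglia (arrays 1 to 3), with separate groups and a difference of 0.56 ± 0.16 (SE), limma unadjusted p 0.00697 and adjusted p 0.669.

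Among the genes that lead to interferon production, 14 of 17 were tested, 11 higher and 3 lower, and 2 had an unadjusted p below 0.05. These were Trim25, the ubiquitin ligase that activates the RNA sensor RIG-I, at 0.65 ± 0.24 (SE), and Irf2, which competes with IRF1 for its sites, at 0.44 ± 0.18 (SE). Their limma adjusted p values were 0.672 and 0.686. In both, every mPGC-1α array lay above every control array. Of 10 tested genes of class I antigen processing, 8 were higher and 2 lower (median difference 0.15), and 0 had an unadjusted p below 0.05.

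Another list of interferon-induced genes that are not among the 43 had 32 of 37 tested, 19 higher and 13 lower, and the median difference was 0.14. In this list 4 genes had an unadjusted p below 0.05, 2 in each direction, and with the replicate block 5 did, 1 higher and 4 lower. Tdrd7, which restrains autophagy during infection, and Slfn5, a Schlafen family member, were higher by 0.62 and 0.60, over 4 and 5 arrays. Gbp6 and Tgtp2, GTPases of the families that interferon gamma induces, differed by -1.15 and -0.74. The Gbp6 probe was well above background on 3 control but only 2 mPGC-1α arrays, so it entered the test through the group in which it was higher, and 1 of its mPGC-1α values is only a bound. Their limma adjusted p values were 0.686 and 0.686, and no gene of the list passed the adjusted test. Without control array 2, against the 5.42% of probes that passed in that fit, Tgtp2 differed by -1.09 (limma adjusted p 0.0271) and Gbp9, of the same family as Gbp6, by -2.84 (0.00224), and of the signalling genes above the kinases Jak2 and Tbk1 by -1.26 (0.0366) and -1.11 (0.037).

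For 15 of the 41 genes several probes were tested, and in 6 of them (Ifi27l2a, Irf1, Irf7, Rsad2, Samhd1 and Zbp1) the probes differed in sign. The values above are those of the probe with the highest mean. Rsad2 gave the widest gap. Its brightest probe differed by 0.22, while the second, A_51_P505132, was at 0.80, -3.04 and -0.26 in control microglia (arrays 1 to 3) and at -2.94, -3.14 and -3.84 in mPGC-1α microglia (arrays 1 to 3). Control arrays 1 and 3 lay above the other 4. That probe differed by -2.48 ± 0.80 (SE), with a limma unadjusted p of 0.0124 and an adjusted p of 0.669. The second probe of Irf1, A_52_P175685, had the same pattern, at 1.96, -1.44 and 1.91 in control microglia (arrays 1 to 3) and at -0.81, -1.44 and -1.29 in mPGC-1α microglia (arrays 1 to 3), a difference of -1.99 ± 0.77 (SE) against 0.13 for the brightest. The second probe of Irf7, A_51_P421876, differed by -0.77 ± 0.53 (SE) against 0.52, so the higher level of Irf7 held for 1 of its 2 probes. The second probe of Ifi27l2a differed by -0.20 ± 0.29 (SE) and that of Stat2 by 0.15 ± 0.22 (SE). In Oas2 and Irgm1 the signs were the same but the sizes were not. Their dimmest probes differed by -1.48 and -0.86, and on them control arrays 1 and 3 again lay above the other 4 arrays. This order was also that of Gbp2 and of the brightest probe of Samhd1. Without control array 2 the second probes differed by -3.58 in Rsad2, -3.11 in Irf1 and -1.49 in Irf7, with limma adjusted p values of 0.00201, 0.000622 and 0.00817, and the dimmest probes of Irgm1 and Oas2 by -1.89 and -2.21, with 0.0118 and 0.0696. Rtp4 and Lgals3bp each had 1 probe.

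**Figure D5:**
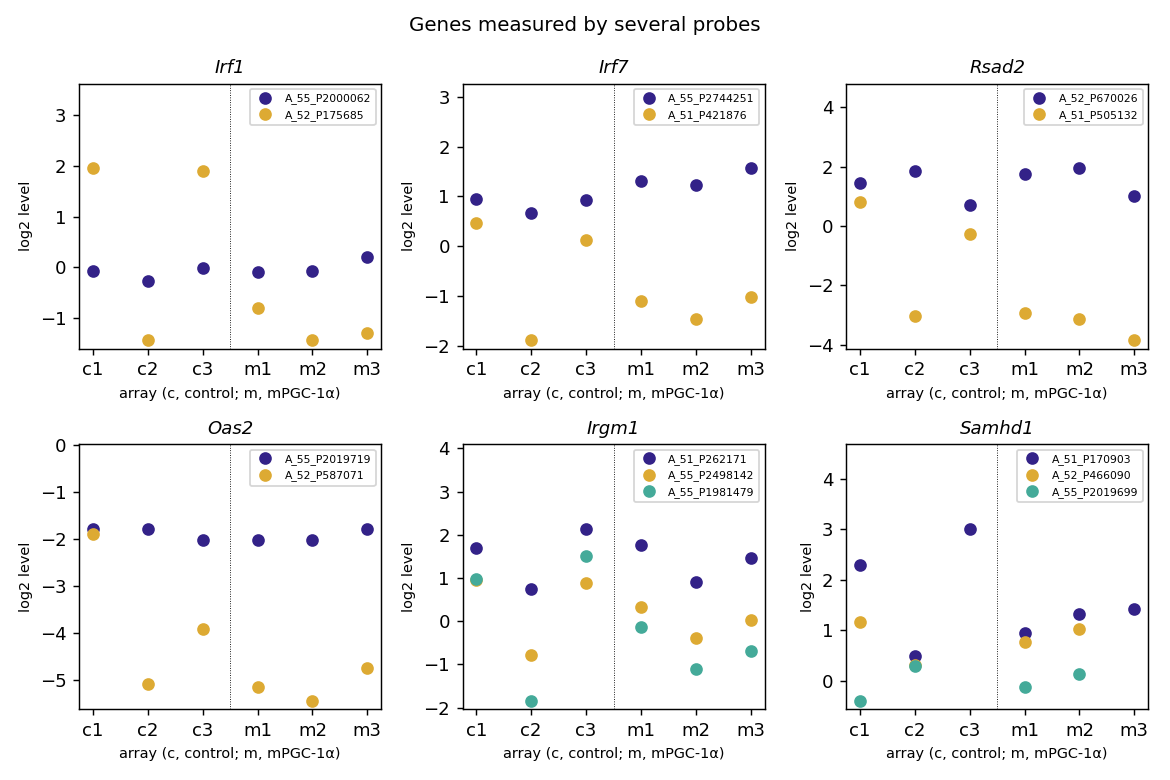
Log2 level on each array (x axis, c for control and m for mPGC-1α) of every tested probe of 6 genes with several probes, 1 colour per probe. The second probes of Irf1, Irf7 and Rsad2 are high on control arrays 1 and 3 and low on the other 4, while the brightest probes of Irf1 and Irf7 vary by less than 1 log2 unit.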

How the data were processed

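The list of 43 genes and the pathway and marker lists were chosen with earlier results of these data known. Microglia RNA from 6 samples, 3 per genotype, was hybridised by the authors to 1-colour Agilent arrays. The labels name Cy3 in one field and Cy5 in the protocol, and the green channel of the scanner files was used. Each deposited scanner file holds the linear intensity of its spots from Agilent Feature Extraction 11.5.1.1, background-subtracted but not normalized between arrays. The authors' series matrix, used as an alternative, holds log2 values normalized in GeneSpring 13. Its columns correlated with the log2 intensity of the same array at r of 0.999 or more over 46731 probes. Their centring per array (medians of 7.78 to 7.79) is of unstated method.

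Log2 intensity minus each array's 75th percentile was computed in R 4.3.3. The percentile was taken over all spots that are not controls, because 88.7% to 94.3% of the spots marked as outliers lie above it and array 3 of each group has the most of them (3010 and 4931, against 549 to 1094). Marked spots were then left out of the values. Tests were limited to probes that exceeded background clearly on every unmarked array of at least 1 group (2 or more arrays) and had 2 values per group. A gene is represented by its probe with the highest mean. Probes were named through RefSeq (GRCm38.p6) for 33767 of 56605 probes (59.7%).

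Groups were compared with limma 3.58.1 (group only, intensity trend, two-sided, Benjamini-Hochberg over 40745 probes, threshold 0.05) and exact permutation of the 6 values (20 assignments). The steps were tested on simulated data. Values by array are given for genes with an unadjusted p below 0.05, separate groups, the 5 largest differences in either direction or the widest spread, and for the smallest p of an otherwise unnamed role. Of the other pathway genes, those with an unadjusted p below 0.05 and the main receptors and Ifnb1 are named, Ifng was added after its value was seen, and 1 gene is not reported here. Arrays 1 and 2 of each group lay on slide 1 and array 3 on slide 2. The labels do not say what a replicate number stands for. Deviations of same-numbered arrays correlated at 0.25, 0.22 and 0.17, and those of other pairs at -0.34 to 0.03, so the numbers were taken as pairs in the replicate block. The number of arrays limits the precision.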

Additional observations from a re-analysis of the deposited data

How the results depend on the processing

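Under the alternative settings named with the processing that keep all 6 arrays, 0 of the 41 genes passed the adjusted limma test. Under settings added after seeing the data, the 75th percentile taken over unmarked probes together with the replicate block gave 3 genes at a limma adjusted p below 0.05. These were Rtp4 at 0.97, Gbp5 at -1.53 and Ifi27l2a at 0.76, while 1720 of 40745 probes passed. Of the 3, Gbp5 passed the filter on dim probes only through the control group. The percentile over unmarked probes moves the common movement on mPGC-1α array 3 to 0.53, with or without the block. The same median over all named genes moves on that array from -0.02 to 0.33. The gap between the interferon-stimulated genes and all named genes stayed at 0.19. With the replicate block on the main scaling 0 genes passed, among 1 of 40745 probes, and the median difference stayed at 0.11, so the pairing changed no adjusted call of the 41 genes. At an unadjusted p below 0.05 the block gave 7 genes in place of 5, beside 11.7% of all tested probes in place of 7.15%. The genes added were Bst2 and Gbp5, on the lower side. The count at an unadjusted p below 0.05 was 3 with normexp and quantile normalization, 3 with the mean over a gene's probes, 3 with the percentile over unmarked probes, and 9 when the block was added to that percentile. Of these, 2, 2, 3 and 6 were higher, in the same order, and the rest lower. Over all tested probes or genes the counts in these settings were, in the same order, 2667 of 40745, 2103 of 32741, 2732 of 40745 and 5404 of 40745. Quantile normalization alone gave 5 genes, 4 of them higher, beside 2670 of 40745 probes. The authors' matrix also gave 5, 4 of them higher, beside 2758 of 40910.

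When each array was left out in turn, 0 to 2 genes passed the adjusted test (2 without control array 2, beside 2130 of 39288 probes, and 0 without any other). At an unadjusted p below 0.05 there were 2 to 7 genes. These were 7 of 40 without control array 2, 4 of them higher, beside 8340 of 39288 tested probes. Without mPGC-1α array 3 they were 2 of 41, 1 of them higher, beside 2362 of 45476. Without mPGC-1α array 1 they were 3 of 35, all higher, beside 2085 of 38021. Separate groups, which fewer arrays make more frequent by construction, were found for 5 to 11 genes, with 11 when mPGC-1α array 2 was omitted, 9 for control array 2 and 8 for control array 3. The share of separate groups over all probes was not counted in these fits, so no result about these genes is read from them. The median difference ranged from -0.03 to 0.21, beside -0.02 to 0.17 over all tested probes. The common movement ranged from 0.02 to 0.13, -0.42 to -0.36 and -0.01 to 0.10 on control arrays 1, 2 and 3, and from 0.14 to 0.24, -0.15 to -0.08 and 0.13 to 0.19 on mPGC-1α arrays 1, 2 and 3. The cause was not tested.

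Leaving out 1 array turned the sign of Cmpk2 (-0.14 to 0.16), Eif2ak2 (-0.00019 to 0.19), Gbp3 (-0.11 to 0.33), Ifih1 (-0.076 to 0.26), Ifit1 (-0.42 to 0.82), Ifit2 (-0.97 to 0.22), Ifit3 (-0.34 to 0.35), Ifitm3 (-0.19 to 0.34), Igtp (-0.029 to 0.28), Iigp1 (-0.40 to 0.059), Irf9 (-0.065 to 0.19), Irgm1 (-0.54 to 0.16), Isg20 (-0.60 to 0.14), Oas3 (-0.47 to 0.66), Oasl1 (-0.14 to 0.85), Rsad2 (-0.092 to 0.51), Sp100 (-0.42 to 0.088) and Usp18 (-0.038 to 0.54), given here with the range of the difference.

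Under quantile normalization, Trim30a was at -0.062, Ifitm3 was at -0.065, Cmpk2 was at 0.051 and Ifit3 was at -0.027, with the sign turned. Under normexp with quantile normalization, Ifitm3 was at -0.12, Cmpk2 was at 0.073 and Oas3 was at 0.045, with the sign turned. Under the authors' matrix, Ifitm3 was at -0.063, Cmpk2 was at 0.064 and Ifit3 was at -0.029, with the sign turned. Under the percentile over unmarked probes, Cmpk2 was at 0.092, Oas2 was at 0.025 and Oas3 was at 0.030, with the sign turned. Under the percentile over spots unmarked on all arrays, Cmpk2 was at 0.041, with the sign turned. The replicate block added to quantile normalization or to the percentile over unmarked probes gave the same values. With the mean over a gene's probes, Irf1 was at -0.93, Irf7 at -0.12 and Rsad2 at -1.13. The number of arrays limits the precision, and Gbp5 was not well above background on mPGC-1α array 1.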
